A study of Mus musculus with 6 samples.

Results

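Chemokines are small secreted proteins that direct leukocytes to injured tissue, and 9 of their genes were followed in mouse kidney after ischemia and reperfusion. They were chosen by gene name from the table of all libraries as Ccl2, Ccl5, Ccl7, Cxcl1, Cxcl2, Cxcl10, Cxcl12, Cxcl16 and Cx3cl1. All 9 were among the 13026 genes of the table, and all 9 were among the 12836 genes tested. The kidneys came from adult male mice on a C57BL/6J background, 3 LIGHT-/- (LIGHT knockout) and 3 LIGHT+/+ (wild type). LIGHT, encoded by Tnfsf14, is a TNF family cytokine that signals through the lymphotoxin beta receptor and the herpesvirus entry mediator. Both genotypes had both kidneys made ischemic for 32 min and reperfused for 24 h, so genotypes were compared after injury and no uninjured kidney is part of the comparison. The labels state neither the construction of the LIGHT allele nor that each sample is a separate mouse, so the tests measure the spread between these samples, which may be technical. Tnfsf14 was not analysed here, and the genotype labels were not checked on it.

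A chemokine acts through a receptor on the leukocyte it attracts. Cxcl1 and Cxcl2 act on Cxcr2 of neutrophils, Ccl2 and Ccl7 on Ccr2 of monocytes, and Cx3cl1 on Cx3cr1 of monocytes and macrophages. Ccl5 acts on Ccr1 and other receptors of lymphocytes and monocytes, Cxcl10 acts on Cxcr3 of activated lymphocytes, while Cxcl12 acts on Cxcr4 and Cxcl16 on Cxcr6. The classes are a simplification, since Ccl5 also attracts monocytes and Cx3cl1 also attracts lymphocytes. Inflammatory chemokine genes such as Cxcl1, Cxcl2 and Ccl2 are known targets of NF-kB, and Cxcl10 is known as a gene induced by interferon. Cxcl12 is known as a constitutive product of stromal cells.

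Values are FPKM, fragments scaled to transcript length and to the mapped fragments of a library, as the authors deposited them. In 1370 genes with 1 annotated transcript, 35.5% to 46.6% of a library's low values lay within 0.1 of a whole step in reads. Each library's step was the best fitting of many tried on these same values. An even spread gives 20% only for a step fixed beforehand. Read counts were therefore not recovered, and depth is unknown. FPKM summed to between 299667 and 318493 per library. LIGHT-/- library 3 stood apart, with a Pearson correlation of log2(FPKM + 1) across genes of 0.934 to 0.956 with the other libraries, against 0.976 to 0.989 among those 5. Results of the members are given with and without it, and those of other genes only in part. The tissue label held, in that all 8 proximal tubule markers were tested and Slc34a1, the phosphate transporter of that segment, ranged from 394 to 875 FPKM in LIGHT-/- and from 290 to 334 FPKM in wild type kidneys. Summed over 8 markers of injured tubule, the level was 5800, 4690 and 1680 FPKM in LIGHT-/- libraries 1 to 3 and 5900, 5660 and 6210 FPKM in wild type libraries 1 to 3. LIGHT-/- library 3 thus held the lowest injury marker level of the 6. It also held the highest sum over 6 markers of thick ascending limb and distal tubule, 1230 FPKM. That sum was 496 and 644 FPKM in LIGHT-/- libraries 1 and 2, and 595, 816 and 932 FPKM in wild type libraries 1 to 3. The part of tubule segments in the chemokine values was not tested. The 8 proximal tubule markers summed to 1250, 1410 and 2150 FPKM in LIGHT-/- libraries 1 to 3, against 1060, 1080 and 948 FPKM in wild type libraries 1 to 3. All 8 were higher on average in LIGHT-/- kidneys, 7 of them without overlap, as 7.76% of all genes were. All 8 were also higher without library 3, though none passed after adjustment. Havcr1, an injury marker of the proximal tubule, was lower in every LIGHT-/- kidney, as 8.80% of all genes were. It stood at 596, 415 and 143 FPKM, against 895, 770 and 833 FPKM in wild type kidneys (limma adjusted p = 0.592). No other marker of injured tubule was free of overlap. Of those 8 markers, 7 were lower and 1 higher on average, and their log2 fold changes had a median of -0.63. Leaving out LIGHT-/- library 3, 5 were lower and 3 higher, and the median was -0.10.

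The chemokine transcripts covered a wide range of abundance. Cx3cl1 was the most abundant of the 9, with a mean of 50.5 FPKM over the 6 libraries, a level above 92.0% of genes tested. Cxcl16 followed at 20.8 FPKM. These are the chemokines of the set that are made as membrane-bound proteins and released by shedding. In all 6 libraries Cx3cl1 was above Cxcl16, and Cxcl16 was above the next in order, Cxcl1. From there on neighbours in the order overlapped. Cxcl1 averaged 13.3 FPKM and was above Cxcl12, at 9.79 FPKM, in 4 of 6 libraries. Cxcl12 was above Ccl2, at 6.26 FPKM, in 3 of 6 libraries, and Ccl2 above Cxcl10, at 5.65 FPKM, in 3 of 6. Ccl7, Ccl5 and Cxcl2 closed the order at 2.90, 2.07 and 1.73 FPKM, each above the next in 4 of 6 libraries. The highest library was 6.57 times the lowest for Cxcl2, 5.51 times for Cxcl1 and 5.02 times for Ccl5, but 1.74 times for Cx3cl1 and 1.49 times for Cxcl16. Cx3cl1 and Cxcl16, the most abundant members, thus had the narrowest range over the libraries.

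Between genotypes, Ccl5 and Cxcl10 were higher in every LIGHT-/- kidney than in any wild type kidney, and the other 7 overlapped. No member passed the test over all genes, a limma fit on log2(FPKM + 1) with Benjamini-Hochberg adjustment and a threshold of 0.05. The members' adjusted p lay between 0.506 and 0.992, and 0.117% of all genes passed. At an unadjusted p under 0.05, 2 of the 9 were counted, Ccl5 and Cxcl10, both higher, where 4.34% of all genes were higher and 3.74% lower at that level. Values did not overlap between genotypes for 2 of 9 members and for 16.6% of all genes. Both members were higher in LIGHT-/-, as 7.76% of all genes were, and no member was lower without overlap, as 8.80% of all genes were. In sign, 6 members were higher and 3 lower, with a median log2 fold change of 0.29, while the median over all genes tested was -0.01. Without LIGHT-/- library 3 the values of 4 members did not overlap, all of them higher, namely Ccl5, Cxcl10, Cxcl1 and Cxcl16. The same 4 had an unadjusted p under 0.05. Without that library 11.2% of all genes were higher without overlap and 3.86% were higher at that p, and no member passed after adjustment, as 0.0865% of all genes did (lowest limma adjusted p among members = 0.398).

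**Figure D1:**
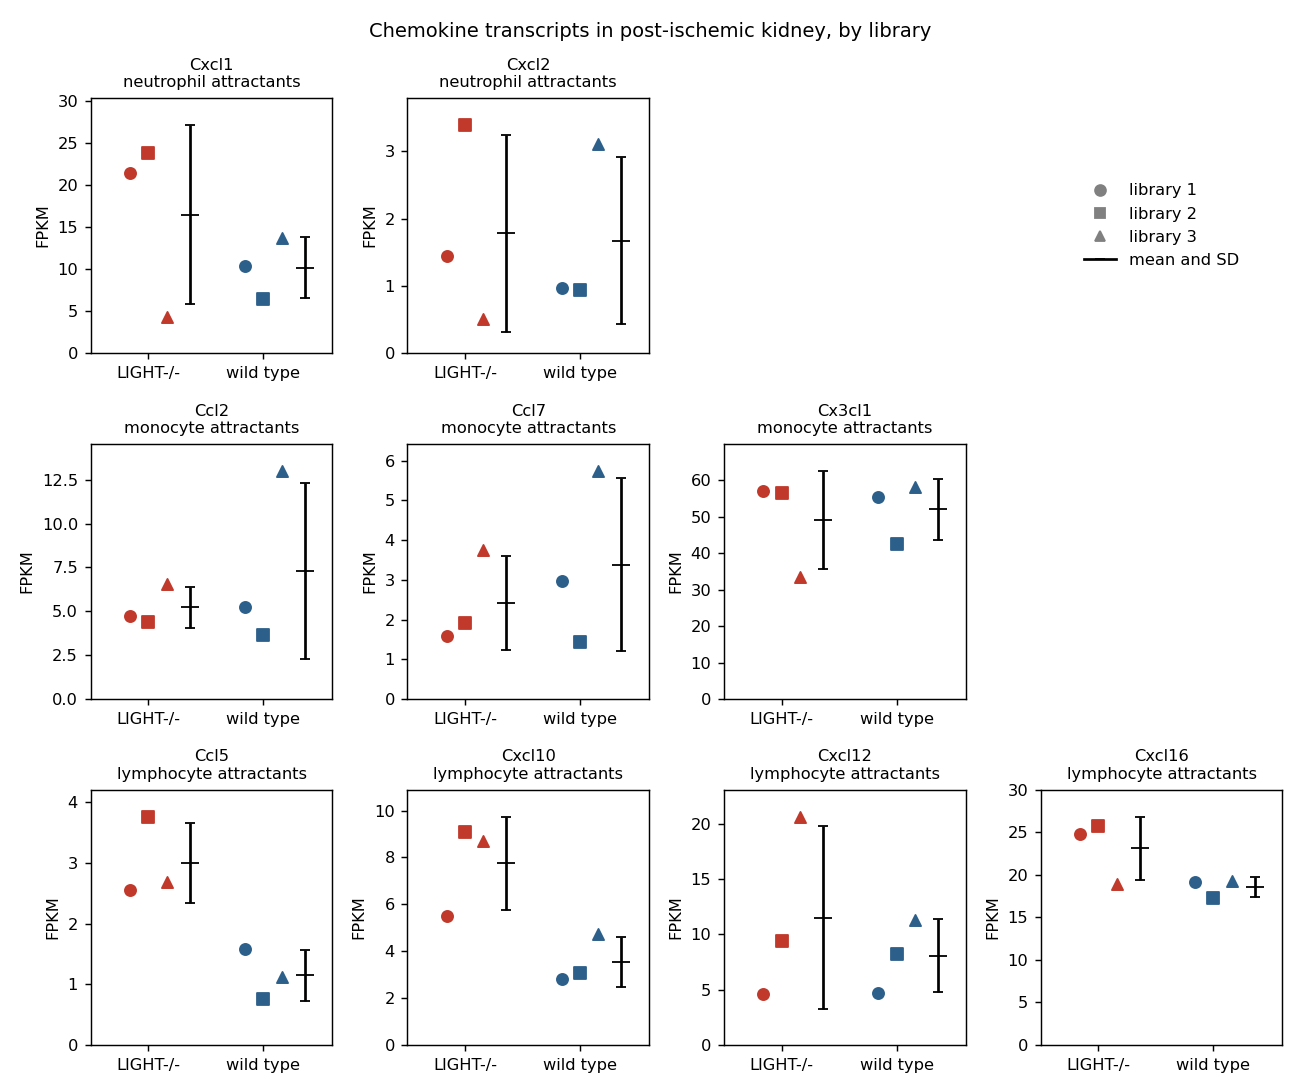
FPKM of the 9 chemokines in each library, LIGHT-/- in red and wild type in blue, with a marker shape per library number and the mean and SD (n = 3) beside each group. Ccl5 and Cxcl10 do not overlap between genotypes, and LIGHT-/- library 3 is the lowest of all 6 libraries for Cxcl1, Cxcl2 and Cx3cl1 and the highest for Cxcl12.

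The neutrophil attractants did not separate the genotypes, and their fold changes depended on which library was left out. Cxcl1 stood at 21.4, 23.7 and 4.31 FPKM in LIGHT-/- kidneys 1 to 3, against 10.4, 6.43 and 13.7 FPKM in wild type kidneys 1 to 3. The first 2 LIGHT-/- kidneys were above all wild type kidneys, and the third was below all of them. The log2 fold change was 0.41 ± 0.60 (SE), with a 95% interval from -1.03 to 1.85 (limma adjusted p = 0.833). Without LIGHT-/- library 3 it was 1.13, with an interval from 0.47 to 1.79 (limma adjusted p = 0.505). It was 0.09 without LIGHT-/- library 1 and 0.02 without LIGHT-/- library 2. Cxcl2, a close relative of Cxcl1 that acts on the same receptor, stood at 1.44, 3.38 and 0.515 FPKM in LIGHT-/- kidneys, against 0.966, 0.946 and 3.11 FPKM in wild type kidneys. Each group held 1 kidney above 3 FPKM, and the groups overlapped fully in range. Its log2 fold change was 0.02 ± 0.45 (SE), with a 95% interval from -1.06 to 1.09 (limma adjusted p = 0.992). That interval leaves room for sizeable differences in either direction, so these libraries do not show that the level of Cxcl2 was alike in both genotypes. The log2 fold change of Cxcl2 was 0.39 without LIGHT-/- library 3 and -0.38 without LIGHT-/- library 2. It was 0.37 without wild type library 3 and -0.17 without wild type library 2.

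Neutrophil markers are given beside these values. All 5 tested, of 12 listed, were lower on average in LIGHT-/- kidneys, with a median log2 fold change of -0.55. It was -0.28 without LIGHT-/- library 3. Their sum was 43.7, 63.4 and 20.1 FPKM in LIGHT-/- kidneys 1 to 3 and 61.0, 73.1 and 91.1 FPKM in wild type kidneys 1 to 3. The sum was lowest in LIGHT-/- kidney 3, where Cxcl1 and Cxcl2 were also lowest. LIGHT-/- kidneys 1 and 2 had more Cxcl1 than any wild type kidney. The marker sum of kidney 1 was below all 3 wild type kidneys, and that of kidney 2 was below 2 of them. Cxcr2, the receptor of Cxcl1 and Cxcl2, stood at 1.25, 2.16 and 0.200 FPKM in LIGHT-/- kidneys and at 1.28, 1.50 and 2.42 FPKM in wild type kidneys. The part of neutrophil content in these values was not tested. In whole tissue, fewer cells of a type and less RNA per cell cannot be told apart.

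Cxcl1 and Cxcl2 lie beside each other on chromosome 5, at 90891241 to 90893115 and 90903871 to 90905938 (mm10, plus strand), in a cluster with Cxcl5, Ppbp and Pf4. Their promoters are shown because they share a match to a form bound by NF-kB, the factor that LIGHT receptors activate. Both are the 250 bases before the start in RefSeq, build GRCm38.p6, plus strand, at chr5:90890995-90891244 and chr5:90903649-90903898. Capitals mark matches to GGANNTNCC, a short NF-kB form searched on both strands.
Cxcl1: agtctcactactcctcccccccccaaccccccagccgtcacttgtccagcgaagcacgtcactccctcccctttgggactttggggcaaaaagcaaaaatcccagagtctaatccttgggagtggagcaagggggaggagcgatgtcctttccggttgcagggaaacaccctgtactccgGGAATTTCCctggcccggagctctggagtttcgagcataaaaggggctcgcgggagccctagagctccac
Cxcl2: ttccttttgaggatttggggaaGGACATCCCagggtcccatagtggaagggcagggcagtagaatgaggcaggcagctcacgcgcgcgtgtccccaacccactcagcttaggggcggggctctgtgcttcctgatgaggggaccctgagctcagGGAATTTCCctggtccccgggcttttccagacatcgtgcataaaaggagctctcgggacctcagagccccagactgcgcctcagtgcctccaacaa
Both genes hold GGAATTTCC, beginning 70 bases before the start of Cxcl1 and 96 bases before that of Cxcl2. It matches on both strands and was counted as 1 place in each gene. Cxcl2 holds a further match 228 bases before its start. Of 32851 RefSeq promoter windows of the same length, 12.2% held a match. With a further G required at its 5′ end the form was held by 3.33% of windows, and only the shared match remained in both genes. A match describes letters and does not show that a factor was bound. In these kidneys the pair differed in level by 4.40 to 14.8 times within a library, always with Cxcl1 above Cxcl2.

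The monocyte attractants were lower on average in LIGHT-/- kidneys, each by less than its spread. Ccl2, the main ligand drawing monocytes into injured kidney, stood at 4.72, 4.41 and 6.56 FPKM in LIGHT-/- kidneys, against 5.25, 3.65 and 12.99 FPKM in wild type kidneys. Wild type kidney 3 was far above the other 5, and the rest overlapped. The log2 fold change of Ccl2 was -0.27 ± 0.39 (SE), with a 95% interval from -1.21 to 0.68 (limma adjusted p = 0.836). Without wild type library 3 it was 0.19 (limma adjusted p = 0.855), and without LIGHT-/- library 3 it was -0.41 (limma adjusted p = 0.891). Ccl7, which shares the receptor Ccr2, stood at 1.58, 1.92 and 3.76 FPKM in LIGHT-/- kidneys, against 2.97, 1.43 and 5.73 FPKM in wild type kidneys. Here too wild type kidney 3 was highest and wild type kidney 2 lowest. Its log2 fold change was -0.29 ± 0.40 (SE; limma adjusted p = 0.823), and 0.08 without wild type library 3. Without LIGHT-/- library 3 the log2 fold change of Ccl7 was -0.55 (limma adjusted p = 0.824). Without wild type library 2 that of Ccl2 was -0.60 and that of Ccl7 was -0.65.

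Ccl2 and Ccl7 were high and low in the same libraries of the wild type group. Ccl7 held between 0.334 and 0.572 of the level of Ccl2 in LIGHT-/- kidneys and between 0.393 and 0.566 in wild type kidneys. Among the 36 pairs of members theirs had the smallest root mean square difference between profiles of log2(FPKM + 1), each centred on its own mean over the 6 libraries, at 0.18. The genes are neighbours on chromosome 11, at 82035571 to 82037453 and 82045712 to 82047525 (plus strand). Ccl2 overlaps the gene model Gm17268, not among the genes tested, on the opposite strand. The same cluster holds Ccl12, another monocyte attractant, which stood at 8.25, 5.71 and 6.84 FPKM in LIGHT-/- kidneys and at 6.89, 2.01 and 5.44 FPKM in wild type kidneys, with wild type kidney 3 not standing out.

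Cx3cl1, a chemokine that can be kept on the cell surface or shed, stood at 56.9, 56.6 and 33.4 FPKM in LIGHT-/- kidneys, against 55.2, 42.4 and 58.2 FPKM in wild type kidneys. LIGHT-/- kidney 3 was the lowest, and the other 5 shared a range. The log2 fold change was -0.11 ± 0.23 (SE), with a 95% interval from -0.67 to 0.45 (limma adjusted p = 0.884), and 0.14 without LIGHT-/- library 3. Cx3cr1, its receptor on monocytes and macrophages, averaged 2.77 ± 0.677 FPKM in LIGHT-/- and 2.42 ± 0.875 FPKM in wild type kidneys (SD, n = 3 each; limma adjusted p = 0.827). Of 12 markers of monocytes and macrophages, 6 were higher and 6 lower on average, with a median log2 fold change of -0.01. Without LIGHT-/- library 3, 2 were higher and 10 lower, with a median of -0.18. With all libraries Cd68, a lysosomal protein of macrophages, and Itgam, an integrin of myeloid cells, were lower in every LIGHT-/- kidney, as 8.80% of all genes were. Their log2 fold changes were -0.38 and -0.79 (limma adjusted p = 0.592 for both). The sum of all 12 markers was 116 to 161 FPKM in LIGHT-/- kidneys and 125 to 236 FPKM in wild type kidneys. It was highest in wild type kidney 3, where Ccl2 and Ccl7 were also highest. The part of these cells in the chemokine values was not tested.

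Among the lymphocyte attractants, Ccl5 and Cxcl10 were higher in all 3 LIGHT-/- kidneys than in any wild type kidney. Ccl5 stood at 2.55, 3.76 and 2.69 FPKM in LIGHT-/- kidneys, against 1.58, 0.749 and 1.11 FPKM in wild type kidneys. The lowest LIGHT-/- kidney was well above the highest wild type kidney. Ccl5 averaged 3.00 ± 0.663 FPKM in LIGHT-/- and 1.15 ± 0.417 FPKM in wild type kidneys (SD, n = 3 each). Its log2 fold change of 0.90 ± 0.19 (SE) corresponds to 1.87-fold on the FPKM + 1 scale, which understates changes of low genes, and the ratio of means was 2.61. The 95% interval of the log2 fold change ran from 0.46 to 1.35 (limma adjusted p = 0.506). In the fit with library weights, which gave LIGHT-/- library 3 a weight of 0.246 and LIGHT-/- library 2 a weight of 4.49, Ccl5 had a limma adjusted p of 0.0493. Over all alternatives its adjusted p ranged from 0.0493 to 0.845 and its log2 fold change from 0.76 to 1.35.

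Cxcl10 stood at 5.48, 9.08 and 8.70 FPKM in LIGHT-/- kidneys, against 2.82, 3.06 and 4.75 FPKM in wild type kidneys. LIGHT-/- kidney 1 was nearest to the wild type range. The log2 fold change was 0.94 ± 0.23 (SE), with a 95% interval from 0.40 to 1.49 (limma adjusted p = 0.592), a 1.92-fold difference on the FPKM + 1 scale. The difference was not carried by LIGHT-/- library 3, since without it the log2 fold change was 0.86 for Cxcl10 and 0.95 for Ccl5. Cxcl10 overlaps Art3 on the opposite strand, and no source used here states whether counting used the strand. Art3 was not among the genes tested. A ratio within a library does not depend on how libraries were scaled. Cxcl10 was 1.16, 2.06 and 1.33 times the level of Ccl2 in LIGHT-/- kidneys and 0.536, 0.838 and 0.366 times in wild type kidneys, a comparison made with the values in view. That ratio did not overlap between genotypes, but Cxcl10 alone did not either, so the ratio is no separate support. Cxcl10 over Cxcl1 overlapped, at 0.256, 0.382 and 2.02 in LIGHT-/- kidneys and 0.270, 0.475 and 0.348 in wild type kidneys. The sum of proximal tubule markers given above was, like Ccl5 and Cxcl10, higher in every LIGHT-/- kidney, and its part in these differences was not tested.

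Cxcl12, which retains and recruits lymphocytes and progenitor cells, stood at 4.56, 9.35 and 20.6 FPKM in LIGHT-/- kidneys, against 4.66, 8.25 and 11.3 FPKM in wild type kidneys. The kidneys of both genotypes ran over much the same range apart from LIGHT-/- kidney 3. Its log2 fold change was 0.32 ± 0.51 (SE; limma adjusted p = 0.848), and -0.19 without LIGHT-/- library 3. Cxcl16, a ligand of Cxcr6 that is also a scavenger receptor, stood at 24.8, 25.7 and 18.9 FPKM in LIGHT-/- kidneys, against 19.2, 17.2 and 19.3 FPKM in wild type kidneys. LIGHT-/- kidneys 1 and 2 were above every wild type kidney, and kidney 3 lay within the wild type range. The log2 fold change of Cxcl16 was 0.29 ± 0.13 (SE), with a 95% interval from -0.03 to 0.61 (limma adjusted p = 0.595), and 0.42 without LIGHT-/- library 3 (limma adjusted p = 0.398). Its gene overlaps that of Zmynd15 on the other strand. Zmynd15 averaged 1.79 ± 0.149 FPKM in LIGHT-/- and 1.34 ± 0.117 FPKM in wild type kidneys (SD, n = 3 each).

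**Figure D2:**
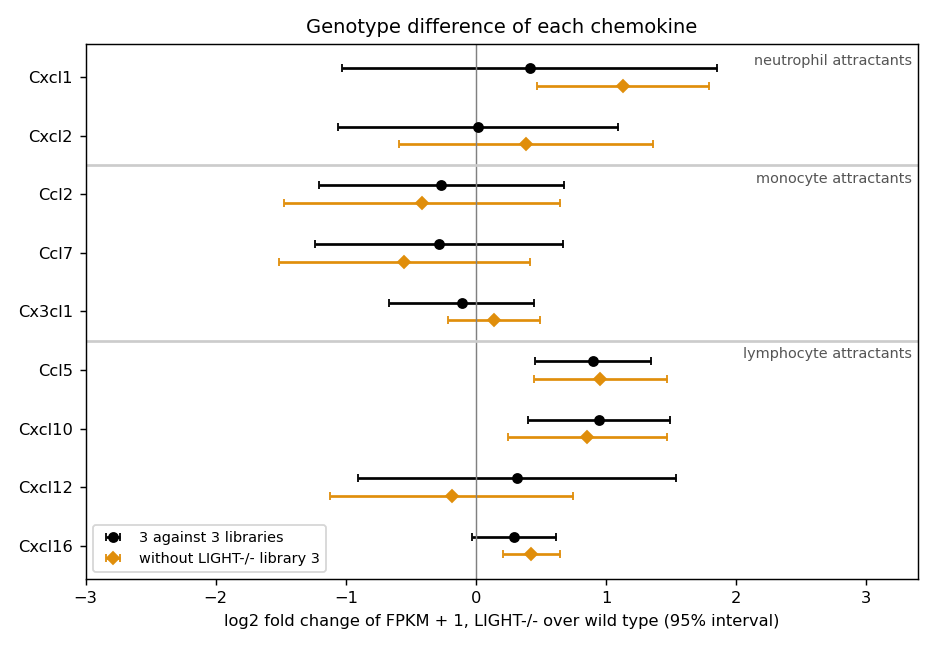
Log2 fold change of FPKM + 1, LIGHT-/- over wild type, with its 95% interval from the limma fit, for each chemokine with all 6 libraries (black circles) and without LIGHT-/- library 3 (orange diamonds). The intervals of Ccl5 and Cxcl10 lie above 0 in both fits, and that of Cxcl1 runs from -1.03 to 1.85 with all libraries and from 0.47 to 1.79 without library 3.

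The promoter of Cxcl10 is shown because it holds, beside matches to the NF-kB form seen in Cxcl1 and Cxcl2, a match to the interferon-stimulated response element, the site through which interferons induce genes. It is the 250 bases before the RefSeq start, on the minus strand of chromosome 5, at chr5:92348890-92349139 (GRCm38.p6). Capitals mark matches to GAAANNGAA, a short form of the response element, to GGANNTNCC and to TGANTCA, the form bound by AP-1, all searched on both strands.
Cxcl10: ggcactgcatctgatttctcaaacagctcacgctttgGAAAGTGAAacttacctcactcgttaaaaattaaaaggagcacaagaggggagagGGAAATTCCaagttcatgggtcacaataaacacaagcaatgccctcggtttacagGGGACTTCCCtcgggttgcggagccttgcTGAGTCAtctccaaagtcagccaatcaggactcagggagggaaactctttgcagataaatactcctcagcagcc
From 5′ to 3′ these are the response element at 213 bases before the start, NF-kB forms at 158 and 103 bases, and the AP-1 form at 74 bases. Each NF-kB form matches on both strands, in the second case shifted by 1 base, and was counted once. Matches to different forms do not overlap. Of all promoter windows of this length, 7.13% held the response element and 6.75% the AP-1 form. With a further A required at its 3′ end the response element was held by 2.98% of windows, Cxcl10 among them. Promoters were found for 5 of the 9 members, Cxcl1, Cxcl2, Cxcl10, Cxcl12 and Cx3cl1. Neither Cxcl12 nor Cx3cl1 held any of the 3 forms in its 250 bases, which says nothing about sites elsewhere.

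The measured markers of T and NK cells, which the lymphocyte attractants draw, were at the lower limit of the data. Of 12 markers of T and NK cells, only Cd3g and Nkg7 were measured, both below the filter for testing, and the other 10 were not analysed here. Nkg7, a granule gene of NK and cytotoxic T cells, stood at 0.501, 0.583 and 0.831 FPKM in LIGHT-/- kidneys and at 0.111, 0 and 0.213 FPKM in wild type kidneys. Cd3g, a chain of the T cell receptor complex, stood at 0, 0.442 and 1.06 FPKM in LIGHT-/- kidneys and at 0.0948, 0.0840 and 0 FPKM in wild type kidneys. Every row of the table has a mean of at least 0.50 FPKM in the higher genotype, so genes with an average this low over both genotypes are listed only where the genotypes differ, and nothing is read from that difference. Jchain, a gene of plasma cells, stood at 7.16 to 8.22 FPKM in LIGHT-/- kidneys and at 0.284 to 0.884 FPKM in wild type kidneys, and passed the test over all genes (limma adjusted p = 0.0110). T and NK cells are known to make Ccl5, and the part of such cells in its level was not tested.

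In LIGHT-/- library 3 some members were below their mean and others above it. On the scale of log2(FPKM + 1) relative to the mean of the 6 libraries, it stood at -1.23 for Cxcl1, -0.73 for Cxcl2 and -0.55 for Cx3cl1. It stood at 1.17 for Cxcl12, 0.65 for Cxcl10 and 0.39 for Ccl7. Cxcl10 was higher still in LIGHT-/- library 2, at 0.70, and Ccl7 in wild type library 3, at 0.89. Cxcl1 and Cxcl12 were the most unlike pair of members, with a root mean square difference of 1.30. Ccl5 and Cxcl10 differed by 0.31, Cx3cl1 and Cxcl16 by 0.25, and Cxcl1 and Cxcl2 by 0.50.

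**Figure D3:**
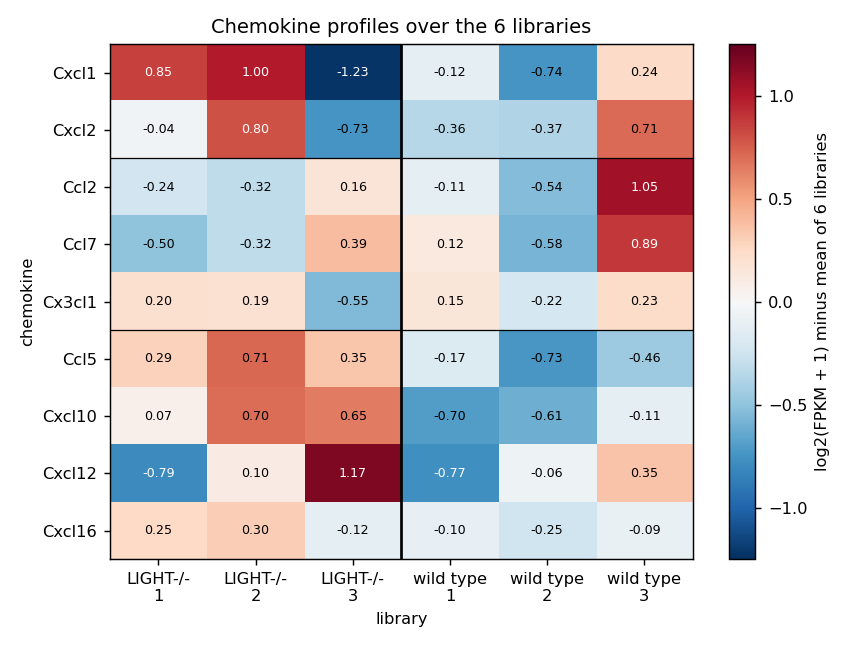
Log2(FPKM + 1) of each chemokine (down) in each library (across, LIGHT-/- left of the black line and wild type right of it), relative to its mean over the 6 libraries. Red is above and blue below that mean, and LIGHT-/- library 3 holds both the lowest value, -1.23 for Cxcl1, and the highest, 1.17 for Cxcl12.

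Genes with the most similar profiles were looked up for the 7 members that varied with an SD of at least 0.5 on that scale, among genes that averaged 2 FPKM or more, predicted models left out. They are given as a description over 6 libraries. Nearest to Cxcl1 were Serpina10, a protease inhibitor of coagulation (root mean square difference 0.27), Dusp8, a phosphatase of MAP kinases (0.29), and Egr1, an immediate early transcription factor (0.31). Egr1 stood at 15.7, 15.6 and 2.95 FPKM in LIGHT-/- kidneys and at 9.42, 8.47 and 13.0 FPKM in wild type kidneys, so that LIGHT-/- kidney 3 was again lowest and kidneys 1 and 2 highest. Nearest to Cxcl2 were Slpi, an inhibitor of neutrophil proteases, Adamts4, a protease of matrix proteoglycans, and Edn1, the vasoconstrictor endothelin 1 (0.20 to 0.22). Nearest to Ccl2 and to Ccl7 were each other, Pja1, a ubiquitin ligase, and Evi2b, a gene of haematopoietic cells (0.15 to 0.20). Among those nearest to Ccl5 were Srr, serine racemase (0.18), and H2-DMb1, a class II antigen-loading protein (0.20). Nearest to Cxcl10 were Golph3l, a Golgi protein, Ifit3b, a gene induced by interferon, and C8g, a complement chain (0.21 to 0.24). Ifit3b stood at 7.31, 11.3 and 11.1 FPKM in LIGHT-/- kidneys and at 4.10, 5.12 and 10.3 FPKM in wild type kidneys. Nearest to Cxcl12 were Irx1, a transcription factor of nephron patterning, Egfl6, a secreted matrix protein, and Fabp4, the fatty acid binding protein of adipocytes and endothelium (0.14 to 0.19).

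Other chemokine ligands were split between directions. Of 29 listed, 17 were tested, 9 higher and 8 lower in LIGHT-/- kidneys, with a median log2 fold change of 0.13. Without LIGHT-/- library 3, where Ccl8 and Ccl17 were below the filter, the median of the other 15 was -0.05, against -0.03 for the same 15 with all libraries. With all libraries none passed after adjustment, and 2 higher and 1 lower had an unadjusted p under 0.05. Of all genes, 4.34% were higher and 3.74% lower at that level. Ccl20, a ligand for Ccr6 of lymphocytes and dendritic cells, stood at 3.15, 7.68 and 1.53 FPKM in LIGHT-/- kidneys, against 1.52, 0.237 and 0.617 FPKM in wild type kidneys (limma adjusted p = 0.592). The lowest LIGHT-/- value was only just above the highest wild type value. Ccl28, a chemokine of mucosal epithelium that attracts plasma cells and lymphocytes, stood at 1.43, 1.89 and 2.77 FPKM in LIGHT-/- kidneys, against 0.381, 0.717 and 0.550 FPKM in wild type kidneys. Its log2 fold change was 0.95 ± 0.19 (SE; limma adjusted p = 0.451), and the groups did not overlap. Ccl9, a ligand of Ccr1 made by macrophages, stood at 4.24, 3.82 and 4.58 FPKM in LIGHT-/- kidneys, against 5.14, 6.29 and 9.10 FPKM in wild type kidneys, lower in every LIGHT-/- kidney (limma adjusted p = 0.592).

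The platelet chemokines Ppbp and Pf4 lie in the cluster of Cxcl1 and Cxcl2. Ppbp averaged 1.17 ± 0.263 FPKM in LIGHT-/- and 3.85 ± 2.69 FPKM in wild type kidneys, and Pf4 averaged 5.88 ± 1.13 FPKM in LIGHT-/- and 9.79 ± 5.40 FPKM in wild type kidneys (SD, n = 3 each). Both overlapped between genotypes. Cxcl5, another ligand of Cxcr2, was between 0.347 and 2.09 FPKM in LIGHT-/- kidneys and between 0.471 and 2.03 FPKM in wild type kidneys. Ccl8, of the Ccl2 cluster, stood at 0.180, 0.395 and 6.38 FPKM in LIGHT-/- kidneys and at 0.198, 0.706 and 0.765 FPKM in wild type kidneys, so that LIGHT-/- kidney 3 alone was high. Ccl6, Ccl11 and Ccl4, all on chromosome 11, had log2 fold changes of -0.30, 0.21 and 0.25. Cxcl14, an abundant epithelial chemokine, averaged 18.5 ± 7.17 FPKM in LIGHT-/- and 26.3 ± 8.27 FPKM in wild type kidneys (SD, n = 3 each). Its relative Cxcl17 had a log2 fold change of -0.19, and the homeostatic ligands Ccl17, Ccl21a, Ccl25 and Ccl27a had log2 fold changes of 0.35, 0.17, -0.03 and 0.13. Ccl17 was listed at 0 in wild type kidney 2. Ccl21a and Ccl27a have 80.6% and 57.0% of their 31-base words in common with other transcripts, so their values are uncertain. The highest such share among the members was the 7.59% of Cxcl2.

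No receptor separated the genotypes. Of 23 listed, 8 were tested, 3 higher and 5 lower, with a median log2 fold change of -0.08, none with an unadjusted p under 0.05 and none without overlap. Ccr1, a receptor for Ccl5, Ccl7 and Ccl9, averaged 2.08 ± 0.825 FPKM in LIGHT-/- and 3.68 ± 1.30 FPKM in wild type kidneys (SD, n = 3 each; limma adjusted p = 0.595). Ccr2, the receptor of Ccl2 and Ccl7, averaged 1.32 ± 0.421 FPKM in LIGHT-/- and 1.61 ± 0.663 FPKM in wild type kidneys. Cxcr4 and Ackr3, the signalling and the scavenging receptor of Cxcl12, had log2 fold changes of -0.27 and 0.01, Cxcr2 one of -0.40 and the atypical receptor Ccrl2 one of 0.14. Ackr3 was the most abundant receptor, at 16.5 to 22.4 FPKM in LIGHT-/- and 17.0 to 22.2 FPKM in wild type kidneys. Cxcr3 and Cxcr6, the receptors of Cxcl10 and Cxcl16, were not analysed here.

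**Figure D4:**
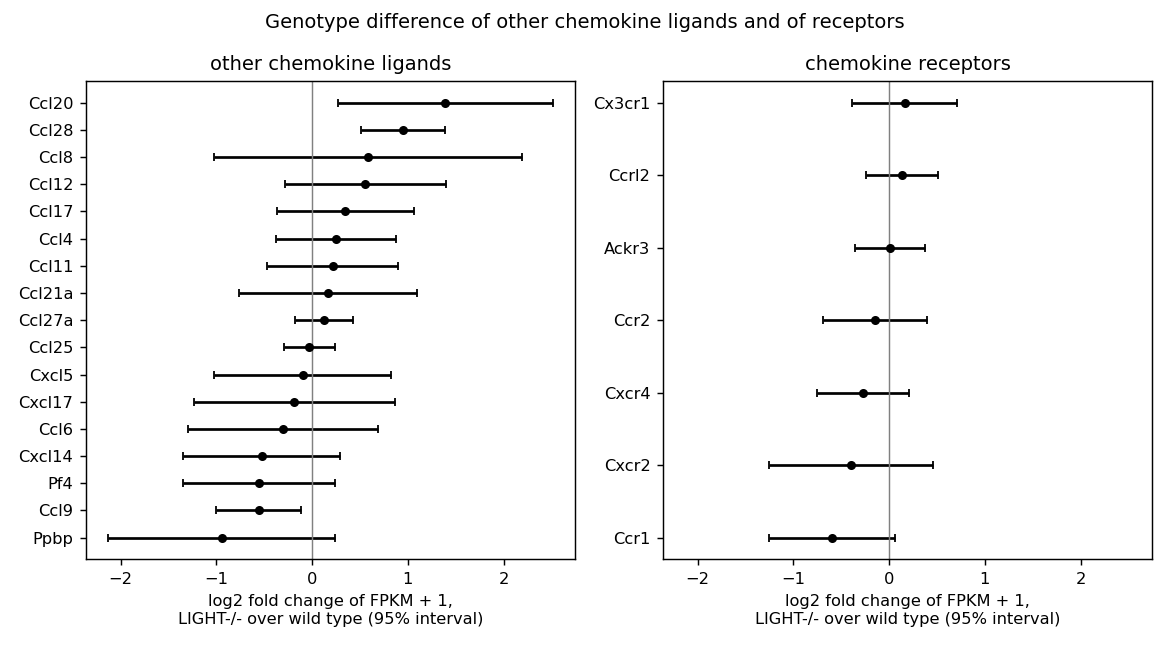
Log2 fold change of FPKM + 1, LIGHT-/- over wild type, with its 95% interval from the limma fit, for the 17 other chemokine ligands (left) and 7 of the 8 receptors (right) that were tested. The intervals of Ccl20 and Ccl28 lie above 0, that of Ccl9 lies below 0, and all receptor intervals shown include 0.

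Genes that act on chemokines before or after transcription were compared as lists. Of 6 sheddases and proteases, 1 was higher and 5 lower, with a median log2 fold change of -0.09. Adam10 and Adam17, which shed Cx3cl1 and Cxcl16, averaged 30.8 ± 2.13 and 7.48 ± 0.408 FPKM in LIGHT-/- and 32.4 ± 2.17 and 8.05 ± 0.884 FPKM in wild type kidneys (SD, n = 3 each). Dpp4, a peptidase that trims Cxcl10 and Cxcl12, had a log2 fold change of 0.46, and Mmp14 and Mmp9, matrix proteases, had log2 fold changes of -0.48 and -0.66 (limma adjusted p = 0.592 to 0.600 for these). Mmp9, also a neutrophil protein, was lower in every LIGHT-/- kidney than in any wild type kidney, as 8.80% of all genes were.

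Of 27 NF-kB pathway genes tested, 6 were higher and 21 lower in LIGHT-/- kidneys, with a median log2 fold change of -0.12. Without LIGHT-/- library 3, 16 were higher and 11 lower, with a median of 0.04, so the balance rested on that library. The 4 with the smallest unadjusted p were Ikbkg, Tnfrsf1b, Traf3 and Nfkbib. Ikbkg, the regulatory subunit of the IkB kinase, stood at 6.64, 4.87 and 4.45 FPKM in LIGHT-/- kidneys, against 9.85, 11.1 and 6.58 FPKM in wild type kidneys (limma adjusted p = 0.592). It overlaps G6pdx on the opposite strand. Tnfrsf1b, a receptor of TNF, had a log2 fold change of -0.29, Traf3, an adaptor that restrains the non-canonical branch, one of 0.15, and Nfkbib, an inhibitor of NF-kB, one of -0.18.

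Of 16 genes of interferon signalling, 10 were higher and 6 lower, with a median log2 fold change of 0.06. Of these, 12 were higher without LIGHT-/- library 3. Ifngr2, Irf1 and Stat2 were among the 4 with the smallest unadjusted p. Irf1, a factor that binds the response element, averaged 8.44 ± 0.155 FPKM in LIGHT-/- and 7.09 ± 1.31 FPKM in wild type kidneys, and Stat2, a factor of type I interferon signalling, averaged 6.48 ± 0.360 FPKM in LIGHT-/- and 5.50 ± 0.921 FPKM in wild type kidneys. Ifngr2, a chain of the interferon gamma receptor, averaged 15.8 ± 5.19 FPKM in LIGHT-/- and 21.8 ± 2.38 FPKM in wild type kidneys (SD, n = 3 each). Of 6 genes that control decay of chemokine mRNA, 5 were higher and 1 lower, with a median log2 fold change of 0.06. Zc3h12a, a nuclease, and Zfp36l1, Zfp36 and Zfp36l2, which bind AU-rich elements, had log2 fold changes of 0.12, 0.08, 0.07 and -0.05. Without LIGHT-/- library 3 these were 0.19, 0.42, 0.39 and -0.01, and the median of the 6 was 0.14. In that fit 2 of the 6, Zfp36l1 and Zfp36, were higher at an unadjusted p under 0.05, as 3.86% of all genes were. Neither passed after adjustment (limma adjusted p = 0.689 and 0.547). None of the genes in these 4 lists passed after adjustment.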

How the data were processed

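Kidney RNA in 3 LIGHT-/- and 3 wild type samples was sequenced from stranded libraries, per the labels' protocols. The authors deposited FPKM for each gene. The submitters' processing notes name HISAT2, StringTie and mm10, and give no versions. The annotation and the counting by strand are stated in no source used here. The 6 libraries' own files were identical to the deposited table of all libraries. Genes averaging 0.5 FPKM or more, 12836 in all, were fitted as log2(FPKM + 1) in limma 3.58.1 (R 4.3.3) with a mean-variance trend, and 190 were removed. P-values were adjusted over all genes kept, and no test was made over the members. An exact permutation test of 3 against 3 kidneys was not used, as it cannot pass the threshold. The fit was tested on simulated data with independent noise in each gene and no outlying library. Such data do not show how the fit behaves with a library like LIGHT-/- library 3. Scaling by a trimmed mean of M-values, an alternative, was computed without weights.

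The members and gene lists were chosen with earlier results of these data known. All members were named. Tested ligands and receptors were named, and of the other pathway lists the 4 genes of smallest unadjusted p, except that 3 genes met by these rules or by likeness are not reported here by name and stay in the counts of their lists. Adam10, Adam17 and the remaining genes named from those lists, the motif letters and the markers quoted were chosen with values in view. Gene positions are from GENCODE M21 (GRCm38, the assembly of mm10), and promoters from RefSeq.

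Same-numbered libraries had correlations of deviations of 0.15, -0.13 and -0.02, so the numbers were not taken as pairs.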

Additional observations from a re-analysis of the deposited data

How the results depend on the processing

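Alternatives changed the pseudocount, the filter, the scaling, the variance model, the weights and the replicate block, and left out each library in turn. For Ccl5, Cxcl10, Cxcl1 and Cxcl16 all 18 alternatives kept the direction. Over them the log2 fold change was 0.76 to 1.35 for Ccl5, 0.83 to 1.17 for Cxcl10, 0.02 to 1.27 for Cxcl1 and 0.21 to 0.46 for Cxcl16. With a pseudocount of 0.1 the log2 fold change of Cxcl2 was -0.04.

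With library weights 52 genes passed over all genes, against 15. Among them were 1 member, Ccl5 (log2 fold change 1.17), and, cell type markers aside, 1 other listed gene, Ccl28. There the neutrophil attractants had a median of 1.04, against 0.21, and Cx3cl1 had a log2 fold change of 0.19. With the replicate block 0 genes passed after limma's adjustment, with 884 at an unadjusted p under 0.05, and no member's call changed. A filter at a mean of 2 FPKM removed Cxcl2.

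With 1 library left out, 0 to 11 genes passed over all genes (7, 0 and 11 without LIGHT-/- library 1, 2 and 3, and 0, 6 and 0 without wild type library 1, 2 and 3). None were members or genes of the other chemokine, receptor and pathway lists (0 to 0). Of the cell type markers, Jchain passed without LIGHT-/- library 3 (limma adjusted p = 0.0258). The range over these fits was -0.38 to 0.39 for Cxcl2, -0.60 to 0.19 for Ccl2, -0.65 to 0.08 for Ccl7, -0.25 to 0.14 for Cx3cl1 and -0.19 to 0.79 for Cxcl12. Class medians ranged from -0.18 to 0.76 for neutrophil, from -0.60 to 0.08 for monocyte and from 0.56 to 0.89 for lymphocyte attractants. Members without overlap numbered 2 to 4, as did those with an unadjusted p under 0.05, with 4 only without LIGHT-/- library 3, alternatives added after the data were seen. Without knowledge of read depth, the counting error of members below about 3 FPKM cannot be given.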
